A study of Homo sapiens with 54 samples.

Results

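CP18 at 2.5 µM was compared with vehicle in A549 cells that carried a USP18 expression vector, called USP18 cells here. The comparison took the 3 libraries whose labels end in that compound, dose and vector and the 3 libraries labelled vehicle with the same vector, 6 of the 54 libraries of the series. A549 is an established human lung adenocarcinoma line. The study made derivatives of this line that carry either an empty vector or a vector for USP18. Both were given candidate USP18 inhibitors, or dimethyl sulfoxide (DMSO) as the vehicle. Cells were harvested after 48 h and gene expression was read by RNA sequencing. All 6 libraries came from A549 cells with the USP18 vector, and the 2 groups differed in their treatment, DMSO or CP18 at 2.5 µM. Where named, further groups were the empty-vector cells with DMSO or CP18 at 2.5 µM, USP18 cells with CP18 at 1 or 5 µM, and USP18 cells with a different compound, CP14, at 2.5 µM. Each of these groups also had 3 libraries. Each vector stood for 1 engineered cell population, so effects of the vector and of the population that carries it cannot be told apart. The compound is known here only by its code, and no structure is given. The sources name poly(A) capture in the sample labels and removal of ribosomal RNA in the methods, which bears on transcripts without a poly(A) tail.

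The vehicle libraries held 20010373, 20369243 and 20815795 counts, and the treated libraries held 19481494, 17225820 and 24067954. Across the series, totals ran from 16673228 to 25609062. Levels are given as CPM, counts scaled to the effective size of each library, and are not compared between genes except as shares of a summed marker level. The labels do not say that replicates were separate cultures. The study's statistics section states that its experiments typically had independent biological replicates, without naming the RNA sequencing. The p-values therefore measure the spread among these samples, which may be technical. No replicate pair differed by as little as sampling noise alone, since chi-square per gene was 2.03 to 2.74 between vehicle libraries and 2.3 to 4.75 between treated libraries. Markers of the line were present: the summed level of 10 epithelial and A549 markers was 19800, 20000 and 20200 CPM with vehicle and 19900, 20100 and 19500 CPM with CP18, with the largest share, 7070 CPM, from the aldehyde dehydrogenase ALDH1A1. The 13 immune markers summed to 39.2, 35.4 and 35.9 CPM with vehicle and 38.8, 36.2 and 39.6 CPM with CP18. Most of that was CD68 at 33.9 CPM, a lysosomal protein that epithelial lines also express. PTPRC, CD3E, CD3D, CD2, MS4A1 and NKG7 had no count in any of the 6 libraries. The 8 fibroblast markers summed to between 9.88 and 11.9 CPM, with COL1A1 highest at 4.61 CPM and DCN at no count. The 7 endothelial markers summed to at most 0.546 CPM, with PECAM1 highest at 0.205 CPM and KDR and CLDN5 at no count.

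USP18 is a cysteine protease that removes ISG15, a ubiquitin-like protein, from its conjugates, and it also binds the IFN receptor subunit IFNAR2 and dampens type I IFN signalling. ISG15 is joined to proteins by UBA7, UBE2L6 and HERC5, all of which are themselves IFN-stimulated. A549 cells are known for high activity of NRF2, the transcription factor of quinone and glutathione enzymes, and for expressing some genes typical of hepatocytes.

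After CP18 at 2.5 µM, many well-expressed genes shifted a little, and few shifted far. Many heat shock proteins, proteasome subunits, tubulins and DNA replication genes were higher, and many endoplasmic reticulum (ER) chaperones, some immediate early genes and the prostaglandin synthase PTGS2 were lower. The test was edgeR's quasi-likelihood test with Benjamini-Hochberg adjustment over all genes tested, with a threshold of 0.05, and a gene past it is said to rise or fall. It called 2235 of 15747 genes tested (14.2%), 1132 higher (7.19%) and 1103 lower (7%), and 4200 genes had an unadjusted p under 0.05. Without vehicle replicate 1, 1489 genes were called. Of 9899 genes with a mean of at least 10 CPM, 2041 were called (20.6%), 1060 higher and 981 lower. The median change of these 2041 was 1.13-fold in either direction. A change of 1.08-fold marked the 10th percentile of size and 1.25-fold the 90th. The groups did not overlap in 1990 of these 2041 calls, so lack of overlap adds little to a call. Well-expressed genes named for the smallest p-values were also chosen for groups that do not overlap.

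Falls reached further than rises among these well-expressed genes. Of the 2041 calls, 1590 had an absolute log2 fold change under 0.25, 413 lay between 0.25 and 0.5, 34 between 0.5 and 1, and 4 were over 1. Past 0.5, 6 genes were higher and 32 lower, and past 0.25, 162 were higher and 289 lower. RASD1, a small GTPase of the Ras family, had the largest fall at -1.47, and RN7SL2, an RNA of the signal recognition particle, had the largest rise at 1.46. The call of RN7SL2 was close to the threshold and was lost in 4 of the 6 fits without 1 library.

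**Figure D1:**
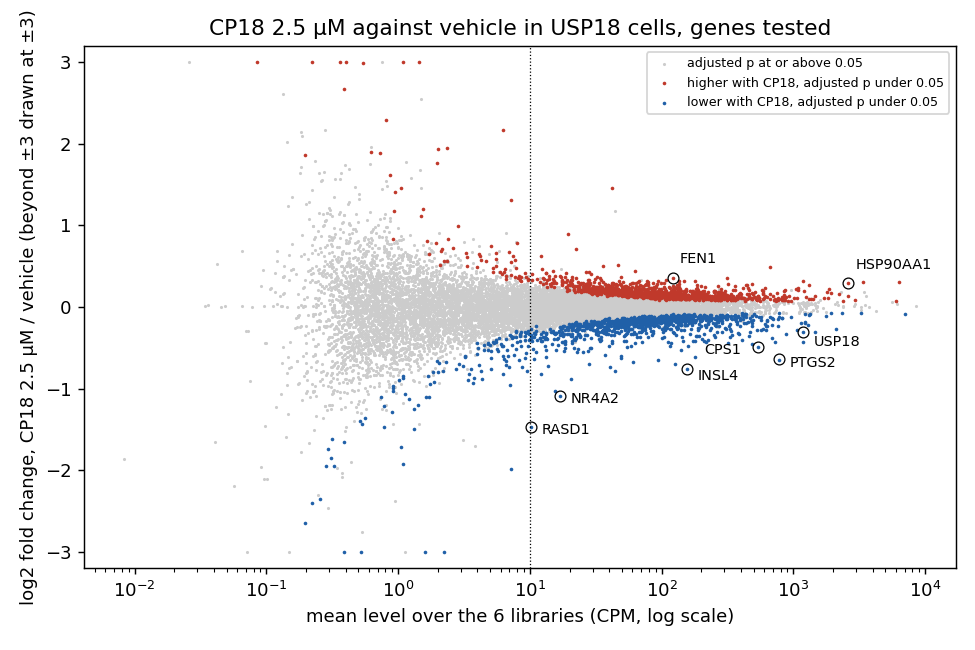
Log2 fold change of each gene tested (CP18 2.5 µM over vehicle, USP18 cells, 3 libraries a group) against its mean level over the 6 libraries in CPM on a log axis, with red points higher and blue points lower at an adjusted p under 0.05. The dotted line marks 10 CPM, to the right of which 2041 of 9899 genes were called, and changes beyond 3 are drawn at 3.

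Many heat shock proteins, which fold proteins in the cytosol and mitochondria, were higher. Of 24 tested, 13 rose and the other 11 did not pass, with a median log2 fold change of 0.14 against -0.0022 over all genes tested. For comparison, 14.2% of all genes and 20.6% of well-expressed genes were called. HSP90AA1 (ENSG00000080824.18, chr14:102080742-102139699, minus strand, GRCh38, GENCODE 44), the inducible cytosolic HSP90, was at 2321, 2351 and 2339 CPM with vehicle and at 2877, 2765 and 2948 CPM with CP18. All 3 treated libraries lay above all 3 vehicle libraries, which the rule that named this gene required. The spread within each group was small beside the gap. The log2 fold change was 0.29 ± 0.031 (SE, adjusted p = 1.9e-06), a level 22.5% higher. DNAJA1, an HSP40 co-chaperone of HSP70, went from 407, 407 and 403 CPM to 490, 476 and 498 CPM (0.27 ± 0.03, adjusted p = 5e-06). The mitochondrial chaperonin pair HSPE1 and HSPD1 also rose. HSPE1 was at 179, 178 and 182 CPM with vehicle and at 221, 210 and 214 CPM with CP18 (0.26 ± 0.032, adjusted p = 1.5e-05). HSPD1 was at 1103, 1124 and 1117 CPM with vehicle and at 1284, 1260 and 1299 CPM with CP18 (0.2 ± 0.026, adjusted p = 2.2e-05). For these genes too the groups did not overlap. CACYBP, which binds calcyclin and the ubiquitin ligase SIAH1, rose from 167, 170 and 172 CPM to 205, 201 and 208 CPM (0.27 ± 0.031, adjusted p = 6.1e-06).

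Many genes of the proteasome, which degrades ubiquitin-tagged proteins, were higher too. Of 35 ubiquitin and proteasome genes tested, 20 rose and the other 15 did not pass, with a median of 0.11. This count and that of tubulins can be read beside the 14.2% called of all genes and the 20.6% of well-expressed genes. PSMC3, an ATPase of the proteasome's cap, was at 165, 169 and 170 CPM with vehicle and at 196, 203 and 188 CPM with CP18 (0.22 ± 0.031, adjusted p = 7e-05). PSMB7, a catalytic subunit, was at 169, 170 and 169 CPM with vehicle and at 187, 196 and 192 CPM with CP18 (0.18 ± 0.03, adjusted p = 0.00041). Treated libraries lay above vehicle libraries for both subunits. Tubulins, the building blocks of microtubules, and their folding partners rose in 11 of 13 tested, with a median of 0.18. TUBA4A went from 83.4, 80.9 and 86.9 CPM to 99, 104 and 102 CPM (0.28 ± 0.046, adjusted p = 0.00034). TUBB4B went from 478, 472 and 479 CPM to 544, 551 and 526 CPM (0.18 ± 0.029, adjusted p = 0.00025). Tubulin genes are close in sequence, so how reads were divided among them is uncertain.

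Many ER chaperones and genes of the unfolded protein response moved the opposite way. Of 24 tested, 18 fell and the other 6 did not pass, with a median of -0.13. Among all genes tested 7% were called lower, and 20.6% of well-expressed genes were called either way. XBP1 (ENSG00000100219.16, chr22:28794555-28800597, minus strand), a transcription factor of that response, was at 194, 192 and 203 CPM with vehicle and at 148, 151 and 142 CPM with CP18. The treated libraries were all lower, with a gap several times the spread. Its log2 fold change was -0.42 ± 0.038 (adjusted p = 3.1e-07), a level 25.3% lower. HSPA5, the main ER chaperone, also known as BiP, was at 1008, 990 and 1014 CPM with vehicle and at 937, 920 and 908 CPM with CP18 (-0.12 ± 0.024, adjusted p = 0.0012). SYVN1, the ubiquitin ligase of ER-associated degradation, was at 65.3, 68.8 and 70.2 CPM with vehicle and at 56.5, 59.1 and 49.9 CPM with CP18 (-0.31 ± 0.054, adjusted p = 0.00054). For both genes the groups did not overlap. CALR, the lectin chaperone calreticulin, fell by 0.15 on the log2 scale (SE 0.022, adjusted p = 0.00016). P4HB, a protein disulfide isomerase, fell by 0.14 (SE 0.024, adjusted p = 0.00055).

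Promoters of both chaperone groups were searched because the members that passed moved the same way within each group. The window ran from 250 bases before to 50 bases after the start site listed by RefSeq on GRCh38.p14, for 27305 gene symbols, and both strands were read. The ER stress element, searched as CCAAT followed after 9 bases by CCACG, stood in 22 of all promoters (0.0806%) and in 14 of the 11477 tested genes with a promoter in the table (0.122%). It stood in 6 of the 23 ER genes matched (26.1%): XBP1, CALR, HSPA5, HSP90B1, CANX and CRELD2, all of which fell. Among well-expressed genes it was in 7 of 782 that fell (0.895%), the same 6 and ERO1B, in 0 of 872 that rose and in 6 of 6418 not called (0.0935%). The heat shock element, searched as GAA, TTC and GAA each separated by 2 bases or their complement, stood in 133 of all promoters (0.487%) and in 4 of the 22 heat shock genes matched (18.2%): DNAJA1, SERPINH1, HSPA8 and CHORDC1, all of which rose. Among well-expressed genes it was in 7 that rose (0.803%), in 4 that fell (0.512%) and in 12 not called (0.187%). A match describes the letters in this window and says nothing of a factor bound there.

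3 of these promoters are shown to let the letters be seen beside the values, from 120 to 31 bases before the start site, 5′ to 3′ on the gene's strand, with the element in capitals. HSPA5 and CHORDC1 were chosen after their values were seen. CHORDC1, an HSP90 co-chaperone, was at 124, 124 and 127 CPM with vehicle and at 138, 140 and 145 CPM with CP18 (0.17 ± 0.038, adjusted p = 0.0038). The HSPA5 stretch is chr9:125241374-125241463, that of XBP1 chr22:28800600-28800689 and that of CHORDC1 chr11:90223080-90223169, each on the minus strand. The first 2 carry 1 ER stress element each, starting 66 and 52 bases before the start site, and the last carries 3 overlapping heat shock matches.
HSPA5: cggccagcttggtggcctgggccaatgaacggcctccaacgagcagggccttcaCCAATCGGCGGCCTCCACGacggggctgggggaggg
XBP1: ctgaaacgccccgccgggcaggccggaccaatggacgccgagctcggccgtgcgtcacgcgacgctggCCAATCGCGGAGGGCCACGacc
CHORDC1: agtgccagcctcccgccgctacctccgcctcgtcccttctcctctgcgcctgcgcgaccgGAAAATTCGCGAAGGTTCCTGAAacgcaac

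Many genes of DNA replication and some mitotic genes were higher. Their counts can be read beside the 14.2% called of all genes and the 20.6% of well-expressed genes. Of 36 S phase genes tested, 22 rose, 13 did not pass and POLE, a DNA polymerase subunit, fell, with a median of 0.14. FEN1 (ENSG00000168496.4, chr11:61792911-61797238, plus strand), the flap endonuclease that trims lagging strand fragments, was at 107, 106 and 106 CPM with vehicle and at 138, 133 and 137 CPM with CP18. The treated libraries were all far above the vehicle libraries, which barely differed. Its log2 fold change was 0.36 ± 0.034 (adjusted p = 5.2e-07), the smallest p-value among well-expressed genes that rose. UHRF1, which guides DNA methylation to new strands, went from 69.3, 71.4 and 71.3 CPM to 86.4, 84.2 and 86.7 CPM (0.28 ± 0.036, adjusted p = 2.3e-05). MCM6, a subunit of the replicative helicase, went from 139, 141 and 147 CPM to 165, 163 and 168 CPM (0.21 ± 0.03, adjusted p = 5.5e-05). Neither gene had overlapping groups. Of 33 G2/M and mitosis genes, 14 rose, 18 did not pass and ASPM, a spindle pole protein, fell, with a median of 0.1. HMMR, a spindle-associated protein, went from 92.3, 97.9 and 89.4 CPM to 115, 112 and 116 CPM (0.29 ± 0.036, adjusted p = 1.3e-05). CCNB1, the mitotic cyclin B1, went from 239, 239 and 236 CPM to 274, 273 and 264 CPM (0.18 ± 0.033, adjusted p = 0.00087). More cells in a phase and more RNA per cell in it cannot be told apart in bulk RNA.

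The other well-expressed rises with the smallest p-values were in genes of different functions. PTMA, the nuclear protein prothymosin alpha, was at 1000, 965 and 959 CPM with vehicle and at 1139, 1121 and 1151 CPM with CP18 (0.22 ± 0.024, adjusted p = 2.8e-06). NCL, the nucleolar protein nucleolin, was at 1012, 995 and 978 CPM with vehicle and at 1179, 1154 and 1180 CPM with CP18 (0.24 ± 0.027, adjusted p = 5.3e-06). The levels were 16.6% and 17.7% higher, with treated libraries above all vehicle libraries for both genes. HNRNPD, an RNA-binding protein of AU-rich elements, rose from 248, 247 and 241 CPM to 300, 286 and 290 CPM (0.25 ± 0.029, adjusted p = 5.3e-06). FABP5, a fatty acid carrier, rose from 78.5, 74.9 and 77.5 CPM to 95.5, 92.1 and 96.7 CPM (0.3 ± 0.034, adjusted p = 5.3e-06).

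**Figure D2:**
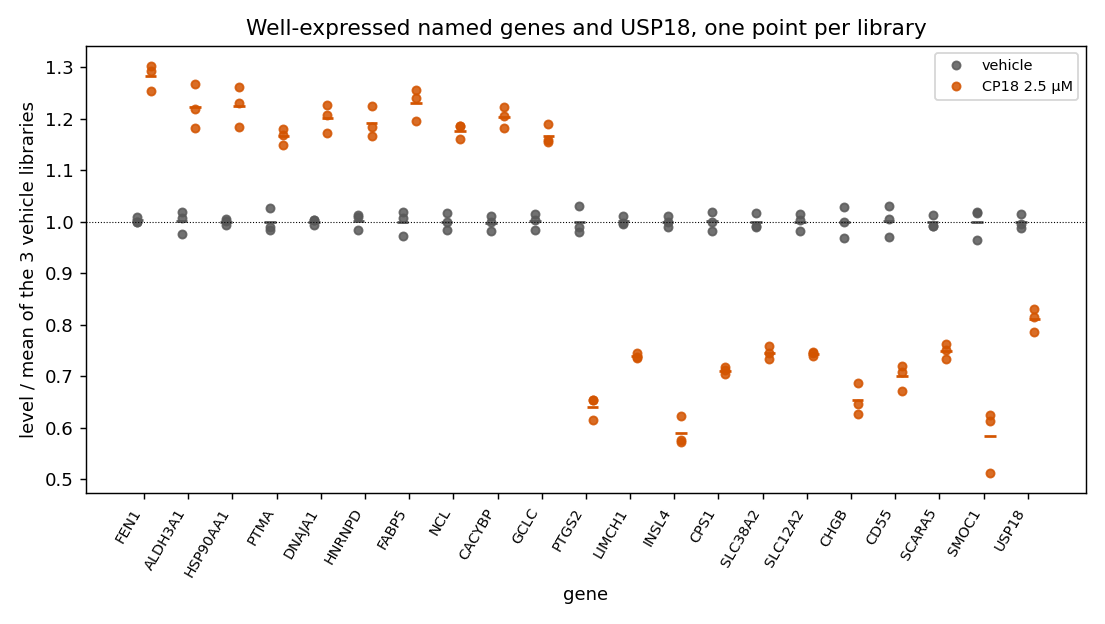
Level in each library divided by the mean of the 3 vehicle libraries, for the 10 higher and 10 lower well-expressed genes with the smallest p-values and for USP18, with grey points for vehicle, orange points for CP18 2.5 µM and short lines for group means. The genes other than USP18 were also chosen for groups that do not overlap, so their separation follows from that choice. Changes run from FEN1 at 28% higher to SMOC1 at 42.1% lower.

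Among well-expressed genes that fell, the smallest p-value belonged to PTGS2 (ENSG00000073756.12, chr1:186671791-186680922, minus strand), the inducible prostaglandin synthase COX-2. It was at 941, 931 and 980 CPM with vehicle and at 621, 622 and 585 CPM with CP18. The groups stood far apart, at -0.64 ± 0.035 (adjusted p = 5.6e-10), a level 36% lower. INSL4 (ENSG00000120211.4, chr9:5231419-5235304, plus strand), an insulin-like peptide of the placenta, was at 196, 194 and 198 CPM with vehicle and at 122, 113 and 112 CPM with CP18. It was 41% lower (-0.76 ± 0.047, adjusted p = 1.7e-09). CPS1, the urea cycle's carbamoyl phosphate synthase, was at 633, 622 and 645 CPM with vehicle and at 450, 445 and 454 CPM with CP18 (-0.49 ± 0.031, adjusted p = 2.2e-09). LIMCH1, an activator of non-muscle myosin, was at 369, 363 and 364 CPM with vehicle and at 268, 269 and 272 CPM with CP18 (-0.44 ± 0.026, adjusted p = 1.2e-09). Replicates of LIMCH1 differed by only a few CPM within each group.

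Transporters and secreted or surface proteins made up the rest of these falls. SLC12A2, the sodium, potassium and chloride cotransporter, went from 843, 815 and 832 CPM to 618, 613 and 619 CPM (-0.43 ± 0.031, adjusted p = 1.9e-08). SLC38A2, a carrier of neutral amino acids, went from 1354, 1351 and 1389 CPM to 1034, 1016 and 1002 CPM (-0.42 ± 0.029, adjusted p = 9.9e-09). Neither transporter had overlapping groups, which the rule that named them required. CHGB, a granule protein of secretory cells, went from 223, 210 and 217 CPM to 136, 149 and 140 CPM (-0.61 ± 0.045, adjusted p = 2.1e-08). CD55, which restrains complement at the cell surface, went from 165, 159 and 169 CPM to 116, 118 and 110 CPM (-0.52 ± 0.039, adjusted p = 2.5e-08). SCARA5, a scavenger receptor for ferritin, was 25% lower (-0.41 ± 0.031, adjusted p = 3.2e-08), and its groups did not overlap. SMOC1, a secreted calcium-binding matrix protein, went from 54.3, 57.2 and 57.4 CPM to 35.1, 34.5 and 28.8 CPM (-0.79 ± 0.06, adjusted p = 3.4e-08).

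Some immediate early genes, which growth signals and stress switch on within minutes, were lower. Of 29 tested, 14 fell, JUN rose and 14 did not pass, with a median of -0.15. Over all genes 7% were called lower, and 20.6% of well-expressed genes were called either way. The rise of JUN did not pass without vehicle replicate 2 (0.18, adjusted p = 0.053) or treated replicate 3 (0.18, adjusted p = 0.054), nor in a fit of all 54 libraries (0.2, adjusted p = 0.12) or of the dose groups (0.2, adjusted p = 0.072). The orphan nuclear receptor NR4A2 (ENSG00000153234.14, chr2:156324437-156342348, minus strand) was at 22.8, 23.4 and 22.8 CPM with vehicle and at 12.4, 11.4 and 8.86 CPM with CP18. It fell by 1.09 on the log2 scale (SE 0.095, adjusted p = 1.7e-07), to less than the lowest vehicle library in every treated library. Its relative NR4A1 was at 151, 157 and 157 CPM with vehicle and at 88.4, 116 and 84.7 CPM with CP18 (-0.69 ± 0.075, adjusted p = 2.5e-06), with treated replicate 2 the closest to vehicle. The phosphatase DUSP1 was at 109, 117 and 123 CPM with vehicle and at 89.4, 95.9 and 86.4 CPM with CP18 (-0.36 ± 0.043, adjusted p = 7.5e-06). ZFP36, which speeds decay of cytokine messenger RNAs, was at 50.6, 47.9 and 47.2 CPM with vehicle and at 34.4, 38.8 and 34.1 CPM with CP18 (-0.45 ± 0.055, adjusted p = 1.3e-05). The list was not uniform. EGR1, a zinc finger factor of the same class, was at 91.2, 93.4 and 98.6 CPM with vehicle and at 91.8, 107 and 89.8 CPM with CP18, and its groups overlapped (0.02 ± 0.06, adjusted p = 0.87).

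Enzymes of the NRF2 program, which handle quinones, glutathione and thioredoxin, moved little and in both directions. Of 30 tested, 12 rose and 3 fell, with a median of 0.09. That compares with 14.2% called of all genes and 20.6% of well-expressed genes. GCLC, the catalytic subunit of the enzyme that starts glutathione synthesis, was at 263, 255 and 260 CPM with vehicle and at 300, 299 and 308 CPM with CP18 (0.22 ± 0.026, adjusted p = 6.7e-06). TXN, thioredoxin, was at 364, 391 and 374 CPM with vehicle and at 428, 421 and 415 CPM with CP18 (0.16 ± 0.03, adjusted p = 0.00083). ABCC2, an exporter of glutathione conjugates, was at 523, 492 and 497 CPM with vehicle and at 440, 461 and 439 CPM with CP18 (-0.18 ± 0.03, adjusted p = 0.00052). The former 2 rose and the exporter fell, each without overlap. NQO1, the quinone reductase, was 7.18% higher (0.1 ± 0.025, adjusted p = 0.0084), and without vehicle replicate 1 it did not pass (0.09, adjusted p = 0.052). The element TGACNNNGC stood in 7 of 20 NRF2 list promoters matched (35%), in 13.6% of all promoters and in 15.2% of those of genes tested. Of those 7 genes GCLM and PIR rose and the other 5 did not pass. Among well-expressed genes the element was in 14.9% that rose, 13.7% that fell and 15.6% not called.

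Of 11 aldo-keto and aldehyde reductases tested, 4 rose and 2 fell, with a median of 0.04. Counts in these short lists can be read beside the 14.2% called of all genes and the 20.6% of well-expressed genes. ALDH3A1 (ENSG00000108602.18, chr17:19737984-19748943, minus strand), an aldehyde dehydrogenase, was at 436, 441 and 423 CPM with vehicle and at 512 CPM or more in each treated library (0.29 ± 0.028, adjusted p = 7.4e-07). AKR1B10, which reduces retinal and other aldehydes, was at 784, 799 and 830 CPM with vehicle and at 946, 891 and 950 CPM with CP18 (0.21 ± 0.029, adjusted p = 6.2e-05). ALDH3A1 is also a target of the aryl hydrocarbon receptor, and of 10 receptor genes and targets tested 5 rose and 1 fell, with a median of 0.13. That median was 0.077 without vehicle replicate 1 and 0.067 without treated replicate 1. The gene that fell was that of the receptor, AHR, from 131, 136 and 139 CPM to 100, 95.1 and 103 CPM (-0.44 ± 0.038, adjusted p = 1.6e-07). The targets CYP1B1, a monooxygenase, and TIPARP, a feedback inhibitor of the receptor, were higher. CYP1B1 went from 97.5, 91.6 and 99.4 CPM to 115, 112 and 134 CPM (0.33 ± 0.054, adjusted p = 3e-04). TIPARP went from 41.9, 41.7 and 44.8 CPM to 50.4, 52.3 and 62.7 CPM (0.37 ± 0.065, adjusted p = 0.00055), with treated replicate 3 the highest for both.

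Transcripts of USP18, the gene that the vector carries, were lower after CP18. USP18 (ENSG00000184979.9, chr22:18150118-18177397, plus strand) was at 1299, 1290 and 1325 CPM with vehicle and at 1064, 1084 and 1025 CPM with CP18. The groups did not overlap and the level was 19% lower (-0.3 ± 0.025, adjusted p = 7.7e-08). Counts do not separate vector transcripts from those of the cells' own gene, and which of them fell was not tested. In empty-vector cells USP18 was at 10.6, 10.7 and 11.1 CPM with vehicle. USP41, a copy with nearly the same sequence, went from 25.4, 25 and 25.9 CPM to 16.9, 20.5 and 16.5 CPM (-0.51 ± 0.09, adjusted p = 0.00083), and reads of the 2 genes may be shared. Of 13 genes of ISG15 conjugation, USP18, USP41 and STAT2 were the 3 that passed, with a median of 0.01. Of 39 IFN-stimulated genes tested, 1 rose and 2 fell, with a median of 0.06. Both counts can be read beside the 14.2% called of all genes and the 20.6% of well-expressed genes. OAS1, an antiviral sensor, was at 40.3, 41.8 and 39.3 CPM with vehicle and at 30.5, 34.5 and 32.4 CPM with CP18 (-0.32 ± 0.068, adjusted p = 0.0028). STAT2, a transducer of IFN signals, was at 38.8, 39.2 and 38.8 CPM with vehicle and at 27.8, 35.7 and 31 CPM with CP18 (-0.31 ± 0.069, adjusted p = 0.0045). Both of these genes were lower, without overlap between the groups.

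Genes of ribosomes and of the respiratory chain had medians near 0, and messenger RNAs encoded in mitochondria a higher median. Of 76 cytosolic ribosomal protein genes, 25 rose and 3 fell, with a median of 0.04. RPS16 fell from 1272, 1309 and 1316 CPM to 1167, 1188 and 1075 CPM (-0.18 ± 0.03, adjusted p = 0.00029). Ribosomal protein genes have many processed copies, so their counts are uncertain. Of 40 respiratory chain genes of the nucleus, 8 rose and 1 fell, with a median of 0.05. That count is near the share over all well-expressed genes, of which 20.6% were called, beside 14.2% of all genes. COX6C, a subunit of cytochrome oxidase, went from 91.6, 92.8 and 92.8 CPM to 105, 102 and 110 CPM (0.19 ± 0.038, adjusted p = 0.0015). Of 13 messenger RNAs encoded in mitochondria, 7 rose, with a median of 0.27, but their libraries spread widely. MT-ATP8, a subunit of ATP synthase, was at 627, 565 and 476 CPM with vehicle and at 830, 843 and 677 CPM with CP18 (0.49 ± 0.078, adjusted p = 0.00021). MT-CO1, of cytochrome oxidase, was at 6056, 5713 and 5098 CPM with vehicle and at 7372, 7642 and 5838 CPM with CP18 (0.31 ± 0.071, adjusted p = 0.0056). Treated replicate 3 lay within the vehicle range for MT-CO1, and without vehicle replicate 3 that gene did not pass (0.24, adjusted p = 0.052), nor did MT-ND4 (adjusted p = 0.055) and MT-ND5 (adjusted p = 0.056), subunits of complex I. MT-ND5 also did not pass without treated replicate 1 (0.26, adjusted p = 0.055). In a fit of all 54 libraries MT-CO1, MT-ND4 and MT-ND5 did not pass either (adjusted p = 0.075, 0.097 and 0.072). The calls of these genes therefore depend on such choices. MT-ATP8 passed in every alternative run for it, at 0.39 to 0.59 with 1 library left out. MT-CYB, MT-ND4L and MT-ND6 were not followed through the alternatives.

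Lists of liver-type, cholesterol synthesis and fatty acid synthesis genes had medians just below 0, and most members did not pass. Over all genes tested 7% were called lower and 14.2% either way, and 20.6% of well-expressed genes were called. Of 22 hepatocyte-type and acute phase genes tested, 8 fell and APOE, an apolipoprotein, rose, with a median of -0.05. FGA and FGG, chains of fibrinogen, fell from 369, 363 and 382 CPM to 286, 300 and 281 CPM (FGA, -0.36 ± 0.038, adjusted p = 1.9e-06) and from 218, 211 and 219 CPM to 174, 170 and 162 CPM (FGG, -0.36 ± 0.044, adjusted p = 1.2e-05). Of 25 cholesterol synthesis genes, 2 rose and 6 fell, with a median of -0.04. SREBF2, their main transcription factor, went from 196, 187 and 192 CPM to 174, 175 and 169 CPM (-0.15 ± 0.03, adjusted p = 0.0016). Of 14 fatty acid synthesis genes, 1 rose and 5 fell, with a median of -0.07. FASN, fatty acid synthase, went from 474, 470 and 504 CPM to 413, 422 and 439 CPM (-0.19 ± 0.039, adjusted p = 0.0029). Of 14 iron genes, 4 rose and 2 fell, with a median of 0, and the ferroxidase CP went from 139, 128 and 137 CPM to 94.8, 97.6 and 99.2 CPM (-0.47 ± 0.054, adjusted p = 5.3e-06).

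Stress, cytokine and matrix lists were mixed, and their shares called can be read beside the 14.2% called of all genes and the 20.6% of well-expressed genes. Of 30 p53 targets, 8 rose and 2 fell, with a median of 0.01, and FBXO22, a ubiquitin ligase adaptor, went from 95, 90.4 and 101 CPM to 109, 109 and 107 CPM (0.18 ± 0.036, adjusted p = 0.0016). Of 30 ATF4 targets, 4 rose and 3 fell, with a median of 0.03. PSAT1, of serine synthesis, went from 247, 257 and 258 CPM to 290, 273 and 300 CPM (0.18 ± 0.038, adjusted p = 0.0025). Of 20 NF-kappaB genes, 2 rose and 4 fell, with a median of 0, and the neutrophil attractant CXCL8 went from 17.2, 18.9 and 20.5 CPM to 12.6, 14.3 and 14.3 CPM (-0.46 ± 0.09, adjusted p = 0.0015). Of 31 hypoxia and glycolysis genes, 2 rose and 4 fell, with a median of 0. SLC2A3, a glucose transporter, went from 210, 207 and 205 CPM to 164, 165 and 158 CPM (-0.35 ± 0.028, adjusted p = 4.4e-08), while PFKFB3, which makes an activator of glycolysis, went from 328, 320 and 333 CPM to 377, 378 and 412 CPM (0.25 ± 0.033, adjusted p = 2.1e-05). Of 30 epithelial-mesenchymal and TGF-beta genes, 3 rose and 4 fell, with a median of 0. FN1, fibronectin, went from 241, 214 and 237 CPM to 170, 170 and 186 CPM (-0.4 ± 0.052, adjusted p = 3e-05).

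Short lists gave small counts, which can be read beside the 14.2% called of all genes and the 20.6% of well-expressed genes. Of 5 metallothionein and zinc export genes tested, the zinc exporter SLC30A1 fell from 87, 93 and 91.2 CPM to 79.4, 80 and 81.3 CPM (-0.17 ± 0.033, adjusted p = 0.0014). Of 16 NAD and PARP genes, NQO1, PARP1 and PARP2 passed, with a median of 0.01, beside 14.2% of all genes. PARP1 did not pass with any of the 6 libraries left out in turn, with adjusted p from 0.053 to 0.12. PARP2 did not pass without vehicle replicate 2 (0.16, adjusted p = 0.067), vehicle replicate 3 (0.12, adjusted p = 0.14) or treated replicate 1 (0.14, adjusted p = 0.12), nor NQO1 without vehicle replicate 1 (0.09, adjusted p = 0.052). Of 12 replication-dependent histone genes tested, HIST1H2BD passed, and without vehicle replicate 1 it did not (0.32, adjusted p = 0.069). Of 10 epithelial and A549 markers, 2 rose and 2 fell, with a median of 0.01. Of 9 RNAs without a poly(A) tail tested, RN7SL2 (ENSG00000274012.1, chr14:49862550-49862849, minus strand) passed. It was at 15.9, 36.9 and 15 CPM with vehicle and at 54.4, 43.6 and 85.9 CPM with CP18 (1.46 ± 0.48, adjusted p = 0.0472), and it has near-identical copies. All 3 treated libraries were higher, but the spread was wide, and without treated replicate 3 it did not pass (1.12, adjusted p = 0.2). Leaving out vehicle replicate 1 (1.27, adjusted p = 0.17), vehicle replicate 3 (1.24, adjusted p = 0.18) or treated replicate 1 (1.55, adjusted p = 0.082) also ended the call, as did DESeq2 (1.44, adjusted p = 0.15) and a fit of all 54 libraries (1.46, adjusted p = 0.1).

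**Figure D3:**
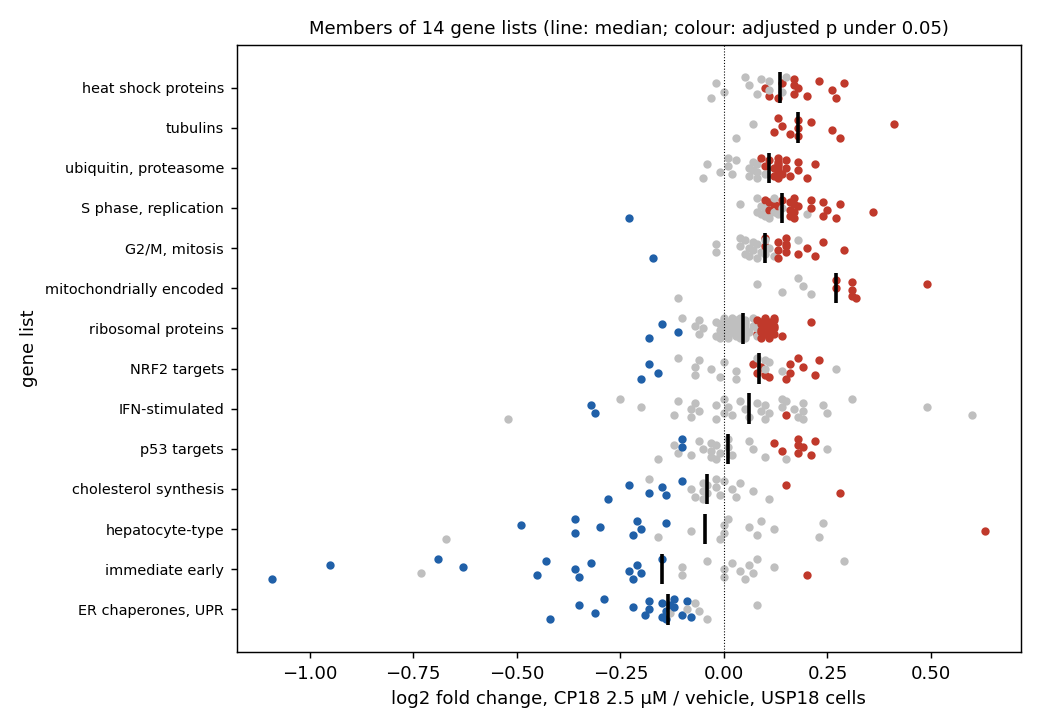
Log2 fold change (CP18 2.5 µM over vehicle, USP18 cells) of each tested member of 14 gene lists, in red or blue at an adjusted p under 0.05 and in grey otherwise, with a black line at each list's median. Medians run from 0.27 for mitochondrially encoded RNAs and 0.18 for tubulins to -0.13 for ER chaperones and -0.15 for immediate early genes, against -0.0022 over all genes tested.

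Changes past an absolute log2 fold change of 1 were few and mostly in genes near the detection limit. The test called 59 genes this way (0.375% of those tested), 24 higher and 35 lower, of which 33 had a mean under 1 CPM and 4 a mean of at least 10 CPM. The count depended on the filter and the tool: it was 129 with no filter, 9 with at least 10 counts in every library and 3 with DESeq2. In 11 of the 59, every library of a group was at or under 3 counts, and in 6 the groups overlapped. Protein-coding genes made up 41. UTP14C, a retrogene of the ribosome factor UTP14A, was at 0, 4.29 and 2.43 CPM with vehicle and at 5.97, 16.5 and 8.58 CPM with CP18 (2.17 ± 0.49, adjusted p = 0.0046), and DESeq2 did not call it (adjusted p = 0.16). With 1 library left out, the log2 fold change of UTP14C ran from 1.6 to 3.03. POTEE, of a family of near-identical ankyrin and actin genes, was at 6.51, 1.07 and 1.1 CPM with vehicle and at 0.257, 0.406 and 0.247 CPM with CP18 (-3.25 ± 0.72, adjusted p = 0.0039). Without vehicle replicate 1, its highest library, POTEE was at -1.85 (adjusted p = 0.074). Some genes named in the study's text were also near this limit, and these did not pass. ENTPD1, an ectonucleotidase, was at 1.24, 1.51 and 1 CPM with vehicle and at 1.54, 1.39 and 1.98 CPM with CP18 (0.4 ± 0.29, adjusted p = 0.42). DCC, the netrin receptor, was at 1.29, 1.7 and 1.19 CPM with vehicle and at 0.823, 0.985 and 1.11 CPM with CP18 (-0.51 ± 0.38, adjusted p = 0.43). Other genes that the study listed did fall here, among them NR4A2 (-1.09), FOSB (-0.63) and USP41 (-0.51).

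The direction of the small shifts went with the size of the gene. Well-expressed genes that rose spanned a median of 20.9 kb of genome from start to end, those that fell 62.4 kb and those not called 36 kb, with a GENCODE 44 span for 99.9% of them. Spans over 100 kb made up 8.5% of the genes that rose, 36.1% of those that fell and 19.3% of those not called. The summed length of exons differed in the same order, with medians of 3.9, 7.83 and 5.72 kb. Among the 2472 genes with the shortest spans, up to 14.6 kb, 16.1% rose and 7.04% fell, and among the 2473 with the longest, over 80.9 kb, 4.73% rose and 16.9% fell. The median log2 ratio to the vehicle mean among the shortest was 0.039, 0.048 and 0.016 in the treated libraries, and among the longest -0.050, -0.069 and -0.018. In the 3 vehicle libraries the same medians were between -0.007 and 0.005. Treated replicate 3 showed the smallest tilt. Median spans were 8.41 kb for tubulins, 16 kb for proteasome genes, 20.6 kb for heat shock genes and 23.5 kb for S phase genes. The median over all well-expressed genes was 35.3 kb. ER genes (18 kb) and immediate early genes (6.94 kb), whose list medians were below 0, were short as well. RNA quality values were not used here, and whether length or RNA quality has a part in any call was not tested. Sorted by exon length, 18.9% of the shortest 2472 genes rose and 4.29% fell, and 4.97% of the longest 2473 rose and 17.6% fell.

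**Figure D4:**
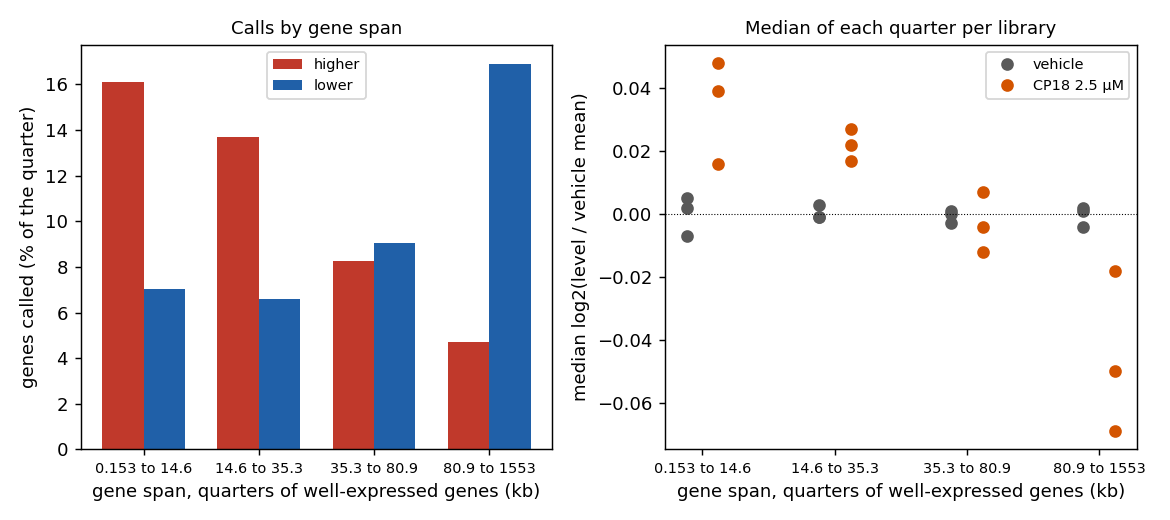
Left, percent of well-expressed genes called higher (red) or lower (blue) in 4 bins of gene span in kb. Right, median log2 ratio to the vehicle mean in the same bins, with grey points for vehicle libraries and orange points for CP18 2.5 µM libraries of USP18 cells, where calls tilt from 16.1% higher and 7.04% lower among the shortest genes to 4.73% higher and 16.9% lower among the longest.

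To ask whether the response depended on the USP18 vector, the change after CP18 in USP18 cells was compared with that in empty-vector cells by an interaction term. In empty-vector cells 939 genes were called (5.96%), 368 higher and 571 lower. The interaction called 31 genes (0.197%), 11 with a higher and 20 with a lower change in USP18 cells, and 1349 had an unadjusted p under 0.05. EGR1 (ENSG00000120738.8, chr5:138465479-138469303, plus strand) fell in empty-vector cells (-0.74, adjusted p = 7.8e-08) and stood at 0.02 in USP18 cells, a difference of 0.76 (adjusted p = 0.00011). JUN, the AP-1 subunit, fell in empty-vector cells (-0.33, adjusted p = 8.5e-05) and rose in USP18 cells (0.2, adjusted p = 0.01), a difference of 0.54 (adjusted p = 0.00082). In USP18 cells the call of JUN was lost in several alternatives. GPRC5A, a retinoic acid-induced receptor, was at 547, 550 and 586 CPM with vehicle and at 415, 439 and 379 CPM with CP18 in USP18 cells (-0.45 ± 0.04, adjusted p = 1.9e-07), and its change in empty-vector cells was -0.02 (adjusted p = 0.82). That difference was -0.43 (adjusted p = 0.0011). NRG1, a ligand of ERBB receptors, fell in USP18 cells (-0.21, adjusted p = 0.0021) and rose in empty-vector cells (0.2, adjusted p = 0.004), a difference of -0.41 (adjusted p = 0.0021). LIMCH1 fell further in USP18 cells, by a difference of -0.29 (adjusted p = 0.00095), but that difference did not pass in a fit of all 54 libraries (adjusted p = 0.27). The interaction term for USP18 itself was -0.26 (adjusted p = 0.18), with -0.04 in empty-vector cells (adjusted p = 0.83).

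The interaction count rested on few genes near the threshold. It was 14, 14 and 11 without USP18-cell vehicle replicates 1, 2 and 3, 19 and 16 without treated USP18-cell replicates 1 and 3, 13 without empty-vector vehicle replicate 1, and 12 and 19 without treated empty-vector replicates 1 and 3. Gene lists in both kinds of cells can be read side by side. Of all genes tested, 14.2% were called in USP18 cells and 5.96% in empty-vector cells. Of the 24 heat shock genes, 13 rose in USP18 cells and 11 in empty-vector cells, with medians of 0.14 and 0.12. Of the 29 immediate early genes, 14 fell in USP18 cells and 17 in empty-vector cells, with medians of -0.15 and -0.33. Of the 24 ER genes, 18 fell in USP18 cells and 4 in empty-vector cells, with medians of -0.13 and -0.04. Of the 36 S phase genes, 22 rose in USP18 cells and 1 in empty-vector cells, with medians of 0.14 and 0.04. Of the 9 RNAs without a poly(A) tail, 1 rose in USP18 cells and 7 fell in empty-vector cells. The interaction called 2 of the S phase genes (3 by DESeq2), with 17 at an unadjusted p under 0.05 by edgeR. It called 3 of the immediate early genes (5 by DESeq2), with 14 at an unadjusted p under 0.05 by edgeR. Among the RNAs without a poly(A) tail it called RN7SL2 (0 by DESeq2, with 8 at an unadjusted p under 0.05 by edgeR). The call of RN7SL2 was lost without any library of these 12 but empty-vector vehicle replicate 3 and treated USP18-cell replicate 2, with adjusted p from 0.054 to 0.2. It called 0 of the ER genes (edgeR, with 9 at an unadjusted p under 0.05 and 4 called by DESeq2) and 0 of the heat shock genes (3 at an unadjusted p under 0.05 and 0 called by DESeq2).

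CP18 was also given to USP18 cells at 1 and 5 µM, and these comparisons share the vehicle libraries. Against vehicle, 2366 of 15460 genes were called at 1 µM (15.3%) and 2722 at 5 µM (17.6%). HSP90AA1 was at 0.25 at 1 µM, 0.29 at 2.5 µM and 0.44 at 5 µM against vehicle on the log2 scale. XBP1 was at -0.24, -0.42 and -0.72, PTGS2 at -0.55, -0.64 and -0.89, and INSL4 at -0.47, -0.76 and -1.35 at the same doses. FEN1 was at 0.29, 0.36 and 0.34, with no order by dose. Heat shock genes had medians of 0.14, 0.14 and 0.27, ER genes -0.08, -0.13 and -0.21, and S phase genes 0.14, 0.14 and 0.15. USP18 was at -0.42, -0.3 and -0.23.

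Tested directly, 5 µM differed from 2.5 µM in 195 genes (1.26%), 89 higher and 106 lower at 5 µM. Heat shock genes were 12 of those higher at 5 µM. HSPA1B, an inducible HSP70, was at 178, 187 and 188 CPM with vehicle and at 183, 182 and 185 CPM with CP18 at 2.5 µM (0 ± 0.038, adjusted p = 0.96). At 5 µM it was higher than at 2.5 µM by 0.54 (adjusted p = 1e-07), and its near-identical neighbour HSPA1A by 0.52 (adjusted p = 1.2e-06). How reads were split between these copies is uncertain. EGR1 and JUN were higher at 5 than at 2.5 µM, by 0.8 (adjusted p = 1e-07) and 0.68 (adjusted p = 6.5e-06). INSL4 was lower at 5 than at 2.5 µM by -0.59 (adjusted p = 2.6e-07). The count was 77 and 122 without 2.5 µM replicates 1 and 2, and 73 without 5 µM replicate 1. Between 2.5 and 1 µM, 2 genes were called (0.0129%), INSL4 and NR4A1, both lower at 2.5 µM, while 1520 had an unadjusted p under 0.05. That count was 0 without 1 µM replicate 1, 1 µM replicate 2 or 2.5 µM replicate 3, 1 without 2.5 µM replicate 1 and 10 without 2.5 µM replicate 2, and DESeq2 called 34.

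**Figure D5:**
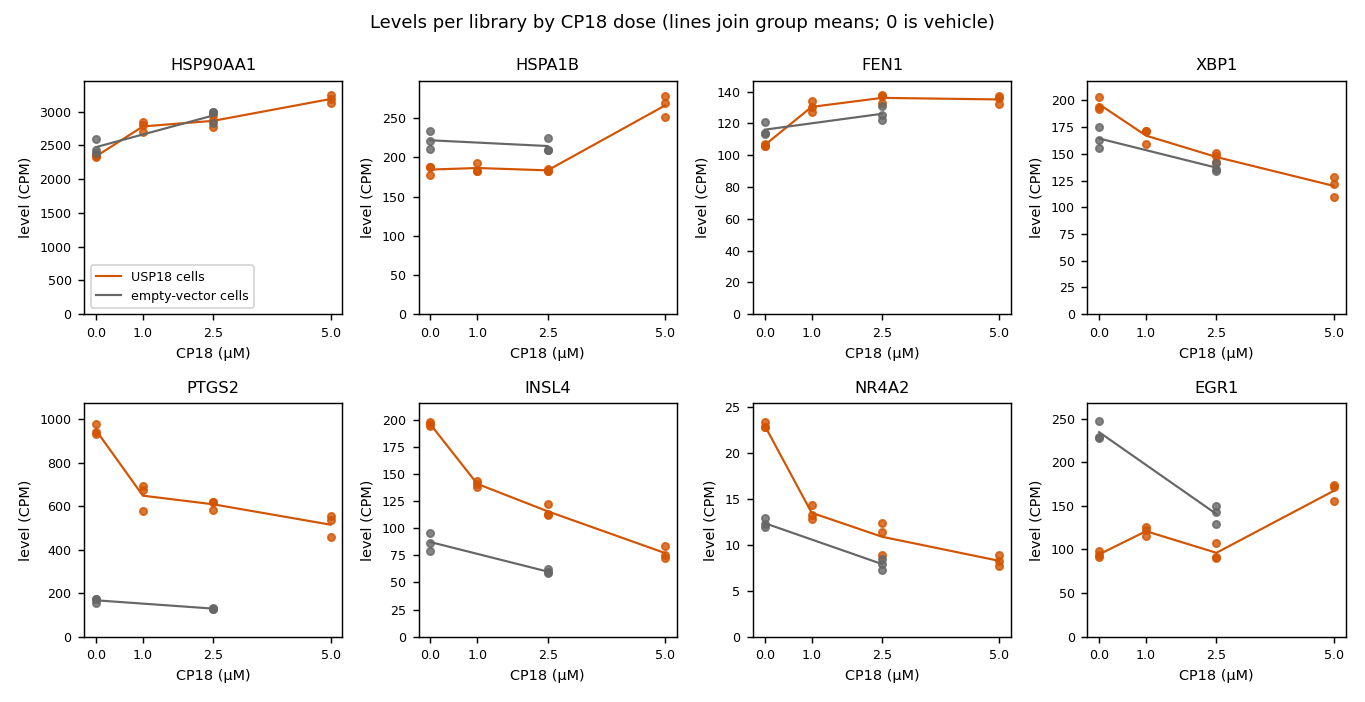
Level in CPM in each library of 8 genes by CP18 dose in µM, where 0 is vehicle, with orange points for USP18 cells, grey points for empty-vector cells and lines that join group means of 3 libraries. HSPA1B differs between 2.5 and 5 µM by 0.54 on the log2 scale and EGR1 by 0.8, while XBP1, PTGS2 and INSL4 are lower at each dose than with vehicle.

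CP14, given at the same dose and time to the same cells, gave a different profile. Against vehicle, 4944 of 15375 genes were called for CP14 (32.2%). Tested directly, CP14 and CP18 differed in 4358 genes (28.3%), 2107 higher and 2251 lower with CP14. FEN1 was lower with CP14 than with CP18 by -0.29 (adjusted p = 5.2e-05), PTGS2 by -0.79 (adjusted p = 2.1e-06) and CCNB1 by -0.45 (adjusted p = 2.2e-06). PSAT1 was higher with CP14 by 0.77 (adjusted p = 5.9e-06). For P4HB the difference was -0.04 (adjusted p = 0.29) and for AKR1B10 0.01 (adjusted p = 0.93), which did not pass.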

How the data were processed

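RNA of 54 libraries, 3 in each of the groups, was sequenced by the authors. Per the labels, the authors converted runs with bcl2fastq, trimmed reads with cutadapt 1.18, aligned them to human build hg38 with STAR 2.7.0f and quantified genes with RSEM 1.3.1. The expected counts deposited by the authors, RSEM's estimates for 58870 genes, were rounded here to whole numbers. The methods and the labels differ on the RSEM version and on the library kit, and the methods give a human GENCODE annotation for alignment but a mouse file for quantification, although the gene identifiers are human. The 2 groups compared were fitted with the empty-vector vehicle and CP18 2.5 µM groups, 12 libraries with 8 residual degrees of freedom, in R 4.3.3 with edgeR 4.0.16 (filterByExpr with a minimum count of 10, TMM scaling, quasi-likelihood test). Benjamini-Hochberg adjustment covered all genes tested, and genes at an adjusted p under 0.05 were called. Further fits took the 4 vehicle and CP18 dose groups of USP18 cells (12 libraries), and vehicle, CP14 and CP18 at 2.5 µM (9 libraries). Levels came from 1 TMM scaling of 21 libraries. Depth was 17225820 to 24067954 counts in the 6 libraries, and a group with no library above 3 counts was taken to be at the floor. Genes with a mean of at least 10 CPM are called well-expressed, and 1.08-fold was the 10th percentile of the changes called among them. Genes are named by these rules: USP18; the 10 higher and 10 lower well-expressed genes with the smallest p-values and no overlap; the 5 largest changes each way at a mean of at least 1 CPM; up to 4 members of each of 32 gene lists by p-value; genes named in the study's text; and the smallest p-values of the other tests. Not every gene so chosen is printed. HSPA5, CHORDC1 and members of 2 further lists were added after values were seen. Members and lists were chosen with earlier results of these data known. Coordinates, spans and exon lengths are from GENCODE 44 on GRCh38. Alternatives were DESeq2 1.42.0, RLE scaling, no filter or a minimum of 10 counts in all libraries, replicate number as a term, fits of all 54 libraries or of the 2 groups compared alone, and each library left out in turn. A fit of the CP18 dose groups was chosen after seeing the data. The calculation was tested on simulated data with changes larger than most of those called here, so that test does not cover the smallest shifts.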

Additional observations from a re-analysis of the deposited data

Results flagged for a closer look

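For 14 of the genes followed through the alternatives, edgeR's interaction test gave a different log2 change after CP18 at 2.5 µM in USP18 cells and in empty-vector cells. The change in USP18 cells minus that in empty-vector cells was 0.76 for EGR1, 0.54 for JUN, -0.43 for GPRC5A, -0.41 for NRG1, -0.29 for LIMCH1 and -0.27 for SLC2A3. These 6 differences passed with each of the 12 libraries left out in turn, but in a fit of all 54 libraries LIMCH1 (adjusted p = 0.27) and SLC2A3 (adjusted p = 0.39) did not pass. The others were nearer the threshold: 0.24 for FEN1, -0.27 for PTGS2, -0.23 for SLC38A2, -0.42 for CHGB, -0.28 for CD55, -0.28 for CXCL5, -0.39 for CREM and 3.22 for RN7SL2, and each of these 8 failed to pass with at least 6 of the 12 libraries left out in turn. With replicate number as a block in edgeR, CHGB (adjusted p = 0.056), CD55 (adjusted p = 0.056) and RN7SL2 (adjusted p = 0.067) did not pass either. CREM was chosen after values were seen. A further gene, FAM220A, also passed (13.56, adjusted p = 0.028), but in USP18 cells it had 201 counts in treated replicate 3 and at most 4 in the other 5 libraries. RN7SL2 has near-identical copies and no poly(A) tail, and its libraries spread widely.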

How the results depend on the processing

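The 2235 calls in USP18 cells were 1489 to 1998 with 1 library left out, and the 2041 well-expressed calls 1373 to 1824. The 59 calls with an absolute log2 fold change over 1 were 129 with no filter, 9 with at least 10 counts in every library, 3 with DESeq2, and 42 to 61 with 1 library left out. The 31 interaction calls were 203 with no filter, 62 with DESeq2, 5 in a fit of all 54 libraries and 11 to 41 with 1 library left out. The 195 differences between 5 and 2.5 µM were 525 with no filter, 116 in the fit of all 54 libraries and 73 to 229 with 1 library left out. The 2 between 2.5 and 1 µM were 204 with no filter, 4 with the stricter filter, 34 with DESeq2, 0 (edgeR, 1520 at an unadjusted p under 0.05 with all groups) in a fit of those 2 groups and 0 to 10 with 1 library left out. The 4358 between CP14 and CP18 were 3342 to 4245 with 1 library left out. With replicate number as a block, these counts were 2135, 1957, 58, 30, 156, 3 and 4145. Numbers gave no sign of pairing vehicle with treated libraries, since correlations of their deviations were -0.074, -0.06 and -0.00072. Of 127 named genes called, 104 lost their call in no alternative that gave them a value, 23 lost it in at least 1, and none changed sign. EGR1 and HSPA1B, neither of which passed, changed sign with libraries left out. EGR1 was at 0 without vehicle replicate 1 and at -0.05 without treated replicate 2, with a range of -0.05 to 0.07. HSPA1B was at 0.01, 0.01 and 0 without vehicle replicates 2 and 3 and treated replicate 2, with a range of -0.03 to 0.01. In at least 1 alternative, 26 of 33 list medians moved by as much as their spread between replicates or more. Heat shock (0.106 to 0.137 with 1 library left out), ER (-0.147 to -0.118) and proteasome (0.095 to 0.127) lists were among these. Of the 33, 10 changed sign, all of lists near 0 or of few genes: ISG15 conjugation, NF-kappaB, hypoxia, metallothionein, iron, NAD, RNAs without a poly(A) tail, and immune, fibroblast and epithelial markers. With 1 library left out, other small medians ran from 0.017 to 0.084 (aldo-keto), 0.033 to 0.089 (IFN-stimulated), 0.005 to 0.034 (p53), 0.012 to 0.033 (ATF4), -0.042 to -0.002 (epithelial-mesenchymal), -0.082 to -0.024 (hepatocyte-type), 0.067 to 0.187 (aryl hydrocarbon receptor) and 0.041 to 0.179 (histones). The cause of these differences was not tested. No alternative separates the vector from the cell population that carries it, RNA quality was not given, and replicates may not be separate cultures.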

Other observations

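A pair of gene groups was noticed among the calls and listed after values were seen, so no test is attached to either list. Targets of the transcription factor CREB and its CRTC co-activators were mostly lower: of 13 tested, 12 fell, with a median log2 fold change of -0.63 against -0.0022 over all genes tested, and in empty-vector cells 9 fell, with a median of -0.37. The list holds PTGS2, INSL4, CPS1, NR4A1, NR4A2 and RASD1. The 12 include SIK1B, a copy of SIK1 that GENCODE 44 marks as an artifact, while SIK1 did not pass (-0.19, adjusted p = 0.42 by edgeR), and NR4A1, NR4A2, NR4A3 and FOSB are also immediate early genes. PDE4B, another of the 12 (-0.12, adjusted p = 0.034 by edgeR), passed with vehicle replicate 1 left out but with none of the other 5 libraries left out (-0.13 to -0.08, adjusted p = 0.055 to 0.19), nor in fits of all 54 libraries (adjusted p = 0.093) or of the dose groups (adjusted p = 0.057). RASD1 was at 14.1, 14.4 and 16.2 CPM with vehicle and at 4.48, 6.66 and 5.15 CPM with CP18 (-1.47 ± 0.15, adjusted p = 1.4e-06 by edgeR). A549 is known to lack the kinase STK11, which restrains CRTC proteins through the SIK kinases. The full CREB element, TGACGTCA, stood in 0 of the 11 list promoters matched, in 1.98% of all promoters and in 3.22% of those of genes tested. At such low shares, 0 of 11 does not set the list apart from other genes, and no shorter form was searched. Genes of hnRNP proteins, which bind nascent RNA, were mostly higher: of 16 tested, 15 rose, with a median of 0.16, and in empty-vector cells 7 rose, with a median of 0.1. Both lists can be read beside the 14.2% of all genes called in USP18 cells and the 5.96% in empty-vector cells. HNRNPC was at 792, 798 and 782 CPM with vehicle and at 923, 891 and 918 CPM with CP18 (0.2 ± 0.024, adjusted p = 7.2e-06 by edgeR).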
